A study of Gossypium hirsutum with 18 samples.

Results

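Small proteins built around an SPX domain are the cell's gauge of its phosphate supply, and 13 cotton genes described as SPX domain genes were followed here in roots and leaves under alkaline stress. In Arabidopsis and rice, the SPX domain binds inositol pyrophosphates, signalling molecules whose level follows the phosphate status of the cell. In that bound state SPX proteins hold back PHR transcription factors, which otherwise switch on genes for phosphate uptake, phosphate release and the exchange of phospholipids for other lipids. In Arabidopsis, transcripts of SPX1 and SPX3 rise when phosphate is scarce and those of SPX4 do not. The genes were selected on their FPKM, the fragments per kilobase of gene and per 1000000 fragments: their deposited description holds the words SPX domain gene and their FPKM was at least 1 in at least 3 of the 18 libraries. Of 70478 genes in the table, 14 carried the description and 13 of these passed the FPKM threshold. The remaining gene, Gh_D12G0937 (SPX domain gene 3), had 0 counts in every library.

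Root and leaf RNA of upland cotton (Gossypium hirsutum) seedlings was sequenced from poly(A) RNA, with 3 libraries in each of 6 groups, a CK, an AS and a SAS group for each organ. CK is listed as untreated, and neither its solution nor its sampling time is given. Seedlings came from soil and were moved into solution, and the labels describe 12 h in 125 mM NaHCO3 or in NaOH brought to the same pH, without saying which of the codes AS and SAS belongs to which solution. Cultivar and seedling age are not given, and nothing shows whether libraries with the same label are from separate plants. The p-values therefore measure the spread between libraries, which may be technical. In whole organs, fewer cells of a type and less RNA per cell cannot be told apart.

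Total counts ran from 46345805 to 66843791 per library. Leaf markers (64 genes, for the small subunit of rubisco and light-harvesting proteins) took 0.343 to 1.41% of counts in leaf libraries and 0.00734 to 0.0345% in root libraries. Of 29 root markers (all described as root hair genes), 13 were at 0 in all CK root libraries and 18 in all CK leaf libraries. The root marker share was 0.0262 to 0.0294% for CK roots, against 0.00647 to 0.0100% for AS roots and 0.00439 to 0.00468% for SAS roots. In leaves it was 0.000586 to 0.000912% for CK and 0.00133 to 0.00279% for SAS. In AS leaves it was 0.00262, 0.00122 and 0.00209%, above all CK leaf libraries and lowest in AS leaf 2. The leaf marker share was 1.10 to 1.41% in CK leaves and 0.343 to 0.700% in SAS leaves. Of the 7 root markers tested, 1 was called higher and 2 lower in AS roots and 1 higher and 3 lower in SAS roots, where their median log2 change was -0.30. Of 3 tested in leaves, 1 was called higher and 0 lower in AS and in SAS. Of 54 leaf markers tested in leaves, 0 were called higher and 34 lower in SAS. Over all 44761 genes tested in leaves, 12168 were called higher and 11636 lower in SAS, and 5144 and 4124 in AS. Of 10 leaf markers tested in roots, 2 were called higher and 0 lower in AS, and 7 higher and 2 lower in SAS, with a median log2 change of 1.47, whereas the mean share of all 64 was 0.0338% in CK roots, 0.0183% in AS roots and 0.00848% in SAS roots. Without CK root 3, SAS root 1 and AS leaf 2, which stand apart in the SPX genes, 3 of 9 were called higher and 2 lower in SAS roots. Both marker shares were thus lower beside the root changes below. The root marker share was higher beside the AS and SAS leaf values, and the leaf marker share lower beside the SAS leaf values. The part of either in them was not tested.

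Of the 18 libraries, 3, written here as CK root 3, SAS root 1 and AS leaf 2, stood apart in the responsive SPX genes. Over Gh_A07G0303, Gh_D07G0360, Gh_A11G0714 and Gh_D11G0832, CK root 3 lay at 2.65 to 4.89 times the mean of the other CK root libraries. SAS root 1 lay at 0.138 to 0.244 times the mean of the other SAS root libraries, and AS leaf 2 at 0.0960 to 0.323 times that of the other AS leaf libraries. Across all genes, the mean correlation with the other libraries of the group was 0.976 for CK root 3, the highest of its group, and 0.971 for SAS root 1 and 0.985 for AS leaf 2, each the lowest of its group. SAS root 1 also had the largest median absolute log2 deviation of the 18 libraries, at 0.257. Among the genes called higher in SAS roots, SAS root 1 was the lowest of its group for 48.0% of all 11330 genes and for 57 of 67 genes of the phosphate lists described below. AS leaf 2 was the lowest of its group for 68.2% of the 5144 genes called higher in AS leaves and for 26 of 32 phosphate genes. Results are therefore given with all libraries and, as a choice made after seeing the data, with these 3 left out. In the genes named above, CK root 3 was the highest control root library and SAS root 1 and AS leaf 2 the lowest of their groups. Leaving them out therefore raises the changes of treated roots and AS leaves against CK, and of SAS against AS roots, in these genes. Calls kept or gained in these genes in that way are no independent support.

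The 13 genes are named for the A and D subgenomes of this allotetraploid, and A and D genes with the same description on chromosomes of the same number are set side by side here as pairs. Positions are as deposited, on a build that the sources used here do not name. Described as SPX domain gene 2 were Gh_A07G0303 (chromosome A07, 3736218 to 3738525, minus strand) and Gh_D07G0360 (D07, 3812834 to 3815178, minus strand). The same description was carried by Gh_A10G0665 (A10, 11132064 to 11132758, plus strand), Gh_D10G0726 (D10, 8378866 to 8379775, minus strand) and Gh_D05G1204 (D05, 10355228 to 10355937, minus strand). It was carried too by Gh_A06G2043 (scaffold1351_A06, 59171 to 61361, minus strand), Gh_D06G1043 (D06, 22351224 to 22353397, minus strand) and Gh_D06G1042, a 306-base model beside it on the same strand (22345976 to 22346281). Described as SPX domain gene 3 were Gh_A11G0714 (A11, 6955892 to 6957185, plus strand), Gh_D11G0832 (D11, 7209624 to 7210918, plus strand) and Gh_A12G0857 (A12, 57239378 to 57242362, minus strand). Described as SPX domain gene 4 were Gh_A07G1885 (A07, 74290196 to 74292315, plus strand) and Gh_D07G2100 (D07, 51174150 to 51176072, plus strand). Nothing states how reads that match both copies of a pair were counted, so values of single copies are uncertain.

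The FPKM threshold treated the 13 genes unequally. For 9 of them, FPKM was at least 1 in all 18 libraries and so in all 6 CK libraries, and these 9 were tested. The other 4, Gh_D10G0726, Gh_A10G0665, Gh_A12G0857 and Gh_D05G1204, reached it in all 6 treated root libraries but in only 0, 0, 0 and 1 of the 6 CK libraries. They therefore had to be higher in treated roots, and Gh_D10G0726 was itself chosen for its root response, so their values are a description with no test. The genes nearest the threshold inside it were Gh_D10G0726 and Gh_A10G0665, with 6 libraries each at or above FPKM 1, and the gene outside it, Gh_D12G0937, had 0 such libraries. This division was made with the values known.

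In roots, the SPX2-described pair on A07 and D07 and the SPX3-described pair on A11 and D11 rose in both treatments, by 3.47 to 4.15 on the log2 scale in AS and by 4.12 to 5.28 in SAS. The SPX4-described pair and the A06 and D06 genes were not called higher. All levels given below for single genes are CPM, the count per 1000000 of the library's scaled total, in the order of libraries 1, 2 and 3. Gh_A07G0303 stood at 7.57, 12.5 and 26.6 CPM in CK roots, 175, 155 and 206 CPM in AS roots and 92.7, 362 and 396 CPM in SAS roots. Every treated root library lay above every CK root library, with CK root 3 the highest control and SAS root 1 the lowest treated library. Its difference from CK was a log2 change of 3.47 ± 0.59 in AS (edgeR adjusted p = 0.0017) and of 4.12 ± 0.61 in SAS (edgeR adjusted p = 0.000331), where ± is the standard error. Its D copy, Gh_D07G0360, stood at 2.89, 4.41 and 10.9 CPM in CK roots, 91.6, 80.5 and 128 CPM in AS roots and 53.6, 272 and 301 CPM in SAS roots. These groups did not overlap with CK either, and the log2 change was 3.99 ± 0.68 in AS (edgeR adjusted p = 0.00176) and 5.03 ± 0.72 in SAS (edgeR adjusted p = 0.000271).

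In the SPX3-described pair, Gh_A11G0714 stood at 1.38, 2.53 and 9.55 CPM in CK roots, 77.6, 56.3 and 115 CPM in AS roots and 32.8, 207 and 268 CPM in SAS roots. Gh_D11G0832 stood at 2.09, 3.40 and 10.3 CPM in CK roots, 88.1, 55.1 and 117 CPM in AS roots and 42.5, 248 and 355 CPM in SAS roots. Both copies showed the same order of libraries within CK and within SAS as the A07 and D07 pair, and neither overlapped with CK. Gh_A11G0714 rose by 4.15 ± 0.87 on the log2 scale in AS (edgeR adjusted p = 0.00505) and by 5.17 ± 0.92 in SAS (edgeR adjusted p = 0.000996). Gh_D11G0832 rose by 3.98 ± 0.81 in AS (edgeR adjusted p = 0.00427) and by 5.28 ± 0.86 in SAS (edgeR adjusted p = 0.000608), the latter a 38.85-fold difference. With the 3 libraries left out, the SAS changes of these 4 genes were 5.14 to 6.83, and those in AS 4.07 to 5.32, all still past the threshold. That choice of libraries raises these changes by itself.

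Of the 9 tested genes, 4 were called higher and 1 lower in AS roots, where 38.0% of all 39584 genes tested were called, 21.0% higher and 17.0% lower. In SAS roots the counts were again 4 higher and 1 lower, where 57.0% of all genes were called, 28.6% higher and 28.3% lower. All treated libraries lay above all CK libraries for 29.5% of all genes in AS roots and 34.0% in SAS roots, and below them for 24.2 and 31.6%. The AS and SAS comparisons share their CK libraries, so their calls are not independent. Root changes are relative to the typical gene, since scaling by library totals alone moved the median log2 change of all genes to -0.48 from -0.01 for AS roots and to -0.59 from -0.06 for SAS roots. Under that scaling the same counts were 4 higher and 3 lower in each treatment, and over all genes 4920 higher and 14966 lower for AS, in place of 8311 and 6733, and 7447 and 18401 for SAS, in place of 11330 and 11221.

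**Figure D1:**
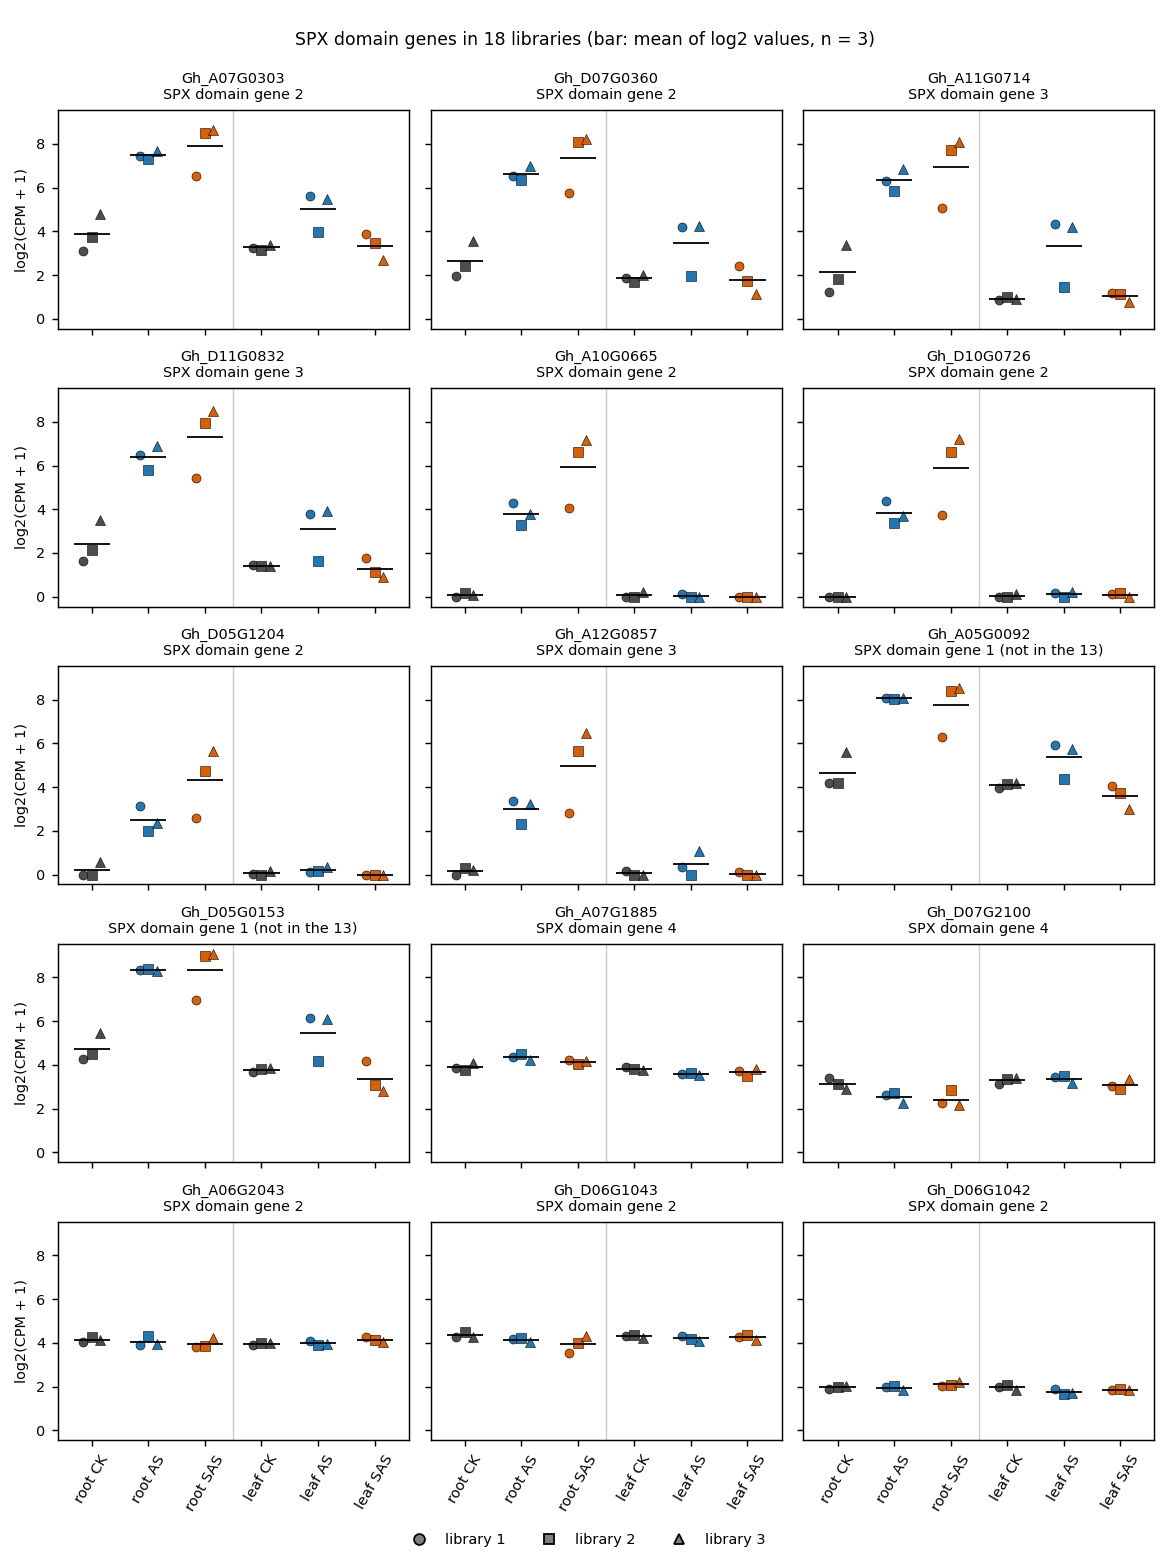
Level of each SPX domain gene in the 18 libraries, as log2(CPM + 1) on the vertical axis, by group on the horizontal axis. Circles, squares and triangles are libraries 1, 2 and 3, grey is CK, blue AS and orange SAS, and bars are means of 3 libraries. The A07, D07, A11 and D11 genes of the SPX2 and SPX3 descriptions, the 4 genes near 0 in controls and the SPX1-described genes are high in treated roots, with SAS library 1 lowest of its group, while the SPX4-described genes and those on A06 and D06 lie between 2.16 and 21.9 CPM in every library. CPM takes no account of gene length, so heights are not comparable between panels.

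The 4 genes that were not tested were at or near 0 outside treated roots. Gh_D10G0726 had 0 counts in all 3 CK root libraries and stood at 19.5, 9.37 and 11.9 CPM in AS roots and 12.4, 98.2 and 149.7 CPM in SAS roots. Set against a floor of 3 counts per CK library, its mean in AS roots was at least 239.6-fold higher, and that in SAS roots at least 1528-fold, bounds that cover counting error only. Without SAS root 1 the latter bound was 2182-fold. In leaves it had 0 to 11 counts per library, at most 0.155 CPM, in every group. The A10 gene of the pair, Gh_A10G0665, had 0, 6 and 3 counts in CK roots and stood at 18.7, 8.59 and 12.6 CPM in AS roots and 15.7, 97.4 and 141 CPM in SAS roots. Both genes showed SAS root 1 far below the other SAS libraries and within the AS range, so that their SAS and AS groups overlapped.

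Gh_A12G0857, the SPX3-described copy whose D12 gene was at 0, stood at 0, 0.217 and 0.172 CPM in CK roots, 9.32, 3.98 and 8.51 CPM in AS roots and 6.14, 49.6 and 86.7 CPM in SAS roots. In AS leaves it had 24, 0 and 80 counts, while the other 3 genes had at most 19 counts in any leaf library. Gh_D05G1204 stood at 0, 0 and 0.496 CPM in CK roots, 7.88, 2.94 and 4.10 CPM in AS roots and 4.95, 25.6 and 49.9 CPM in SAS roots. Its 26 CK root counts all came from CK root 3, the control library that was also the highest for the 4 tested genes that rose. Over their few CK root counts, the mean CPM of Gh_A12G0857 was 54.9 times as high in AS roots and 359 times in SAS roots, and that of Gh_D05G1204 30.4 and 164 times. Within the AS group, library 2 was the lowest for all 4 genes, and within SAS, library 3 was the highest.

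The SPX4-described genes are of a type that in Arabidopsis and rice also restrains PHR factors. In roots the D copy was called lower in both treatments and the A copy was not called. The share of the D copy, compared below, did not pass its threshold in either treatment. Gh_A07G1885 stood at 13.6, 12.7 and 16.1 CPM in CK roots, 19.3, 21.9 and 17.6 CPM in AS roots and 17.6, 15.5 and 17.1 CPM in SAS roots. All AS libraries lay above all CK libraries. Its log2 difference from CK was 0.42 ± 0.15 in AS (edgeR adjusted p = 0.0582) and 0.18 ± 0.15 in SAS (edgeR adjusted p = 0.354). With library totals alone it was -0.05 and -0.35, which relative to the median of all genes under that scaling is 0.42 and 0.24. Gh_D07G2100 stood at 9.58, 7.80 and 6.44 CPM in CK roots, 5.15, 5.51 and 3.86 CPM in AS roots and 3.72, 6.13 and 3.49 CPM in SAS roots. All treated root libraries lay below all CK root libraries. Gh_D07G2100 fell by 0.77 ± 0.27 on the log2 scale in AS (edgeR adjusted p = 0.0486) and by 0.91 ± 0.28 in SAS (edgeR adjusted p = 0.0172). The AS call was lost with RLE size factors, without the FPKM filter and when CK root 1 or 2, any AS root library or SAS root 3 was left out, whereas with library totals alone the log2 changes were -1.26 and -1.45, or -0.78 and -0.86 relative to the median of all genes. The SAS call was lost without CK root 1, SAS root 1 or SAS root 3.

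The A06 and D06 genes showed no call in roots with the scaling used here. Gh_A06G2043 stood at 13.02 to 18.6 CPM and Gh_D06G1043 at 10.4 to 21.2 CPM over the 9 root libraries, with the low end of the second in SAS root 1. The short model Gh_D06G1042 stood at 2.62 to 3.57 CPM. Their log2 differences from CK were -0.28 to -0.08 in AS and -0.47 to 0.09 in SAS. The 95% intervals together ran from -0.78 to 0.45 in AS and from -0.96 to 0.62 in SAS. With library totals alone, Gh_A06G2043 and Gh_D06G1043 were called lower in both treatments, at -0.61 and -0.75 in AS and -0.77 and -1.004 in SAS, values that share the shift of all genes. Relative to the median of all genes they were -0.13 and -0.27 in AS and -0.18 and -0.42 in SAS under that scaling, against -0.13, -0.27, -0.18 and -0.41 with the scaling used here. Without SAS root 3, Gh_D06G1043 was called in SAS too, at -0.66.

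**Figure D2:**
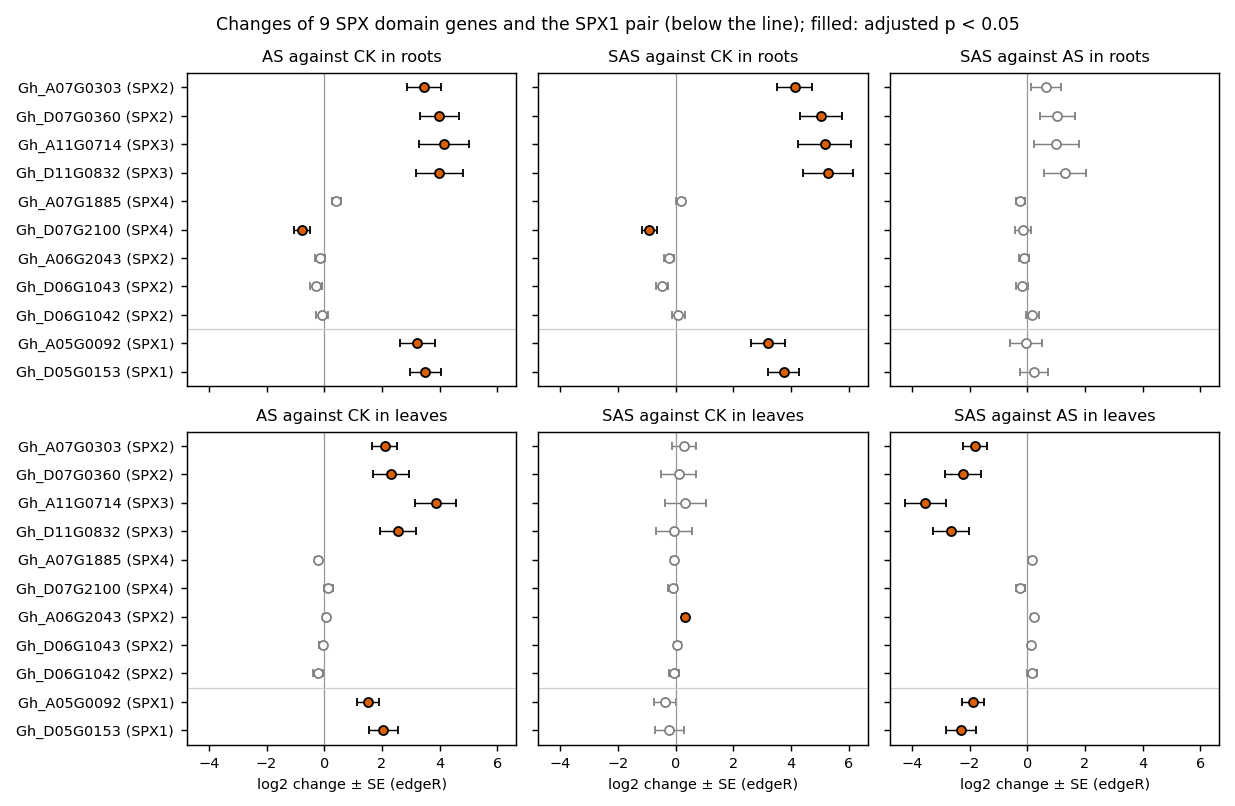
Log2 change of the 9 tested SPX domain genes, and of the SPX1-described genes under the grey line, in the 6 comparisons within a tissue. Points are edgeR estimates with standard errors on the horizontal axis, and filled points have an adjusted p under 0.05. The A07, D07, A11 and D11 genes of the SPX2 and SPX3 descriptions lie between 3.47 and 5.28 in both root comparisons and between 2.09 and 3.86 in AS leaves, and near 0 in SAS leaves.

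Between SAS and AS roots no tested gene passed the threshold with all libraries, and the count changed without SAS root 1. The log2 differences of the 4 rising genes, SAS minus AS, were 0.65 ± 0.54 for Gh_A07G0303, 1.05 ± 0.61 for Gh_D07G0360, 1.01 ± 0.77 for Gh_A11G0714 and 1.30 ± 0.73 for Gh_D11G0832, with 95% intervals that together ran from -0.87 to 3.07. SAS libraries 2 and 3 lay above all AS libraries and SAS library 1 below all AS libraries in each of these genes. The count was 0 of 9 by edgeR, where 39.7% of all genes were called, and 0 at an unadjusted p under 0.05. By DESeq2 and by limma it was 0 too, where 17516 and, at a pseudocount of 1, 15682 of 39584 genes were called. Without SAS root 1 it was 2, Gh_D07G0360 and Gh_D11G0832, where 13808 of 38805 genes were called. With the 3 libraries left out all 4 genes were called higher in SAS, at 1.08 to 1.80, where 12920 of 37119 genes were called. SAS root 1 was left out for its low values in these genes, which raises this difference by itself.

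In leaves the same 4 genes rose in AS, and none of them was called in SAS. Gh_A07G0303 stood at 8.53, 7.96 and 9.43 CPM in CK leaves, 47.8, 14.9 and 44.2 CPM in AS leaves and 13.7, 10.02 and 5.45 CPM in SAS leaves. Gh_A11G0714 stood at 0.834, 0.987 and 0.878 CPM in CK leaves, 18.9, 1.74 and 17.4 CPM in AS leaves and 1.26, 1.20 and 0.689 CPM in SAS leaves. AS leaf 2 was far below the other AS libraries but still above all CK libraries in both genes, and SAS leaf libraries overlapped with CK. In AS leaves Gh_A07G0303 rose by 2.09 ± 0.43 on the log2 scale (edgeR adjusted p = 0.00867) and Gh_A11G0714 by 3.86 ± 0.72 (edgeR adjusted p = 0.00573).

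The D copies rose in AS leaves too. Gh_D07G0360 stood at 2.67, 2.20 and 3.06 CPM in CK leaves, 17.3, 2.88 and 17.8 CPM in AS leaves and 4.35, 2.33 and 1.19 CPM in SAS leaves. Gh_D11G0832 stood at 1.76, 1.63 and 1.65 CPM in CK leaves, 12.5, 2.06 and 14.2 CPM in AS leaves and 2.45, 1.17 and 0.842 CPM in SAS leaves. In Gh_D07G0360 AS leaf 2 lay inside the CK range, and in Gh_D11G0832 just above it. Gh_D07G0360 rose by 2.31 ± 0.63 on the log2 scale (edgeR adjusted p = 0.028) and Gh_D11G0832 by 2.56 ± 0.62 (edgeR adjusted p = 0.0177). Both calls were lost when any CK leaf library, AS leaf 1 or AS leaf 3 was left out, and both remained without AS leaf 2, at 2.78 and 3.04 in the fit that leaves out the 3 libraries.

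In AS leaves 4 of the 9 genes were thus called higher and 0 lower, where 20.7% of all 44761 genes tested were called and 11.5% were called higher. Over all genes, all AS leaf libraries lay above all CK leaf libraries for 19.3%. In SAS leaves 1 of 9 was called, where 53.2% of all genes were called and 27.2% were called higher. That gene was Gh_A06G2043, which stood at 13.7, 15.1 and 14.7 CPM in CK leaves and 18.2, 16.2 and 15.6 CPM in SAS leaves, a log2 change of 0.30 ± 0.10 (edgeR adjusted p = 0.0315). The call was lost without CK leaf 1, CK leaf 3 or SAS leaf 1. The 4 genes that rose in AS had log2 differences of -0.07 to 0.32 between SAS and CK leaves, with 95% intervals from -1.59 to 2.07, so changes of that size were not detectable. SAS leaves were lower than AS leaves in the same 4 genes, by log2 differences of -1.81 for Gh_A07G0303, -2.21 for Gh_D07G0360, -3.54 for Gh_A11G0714 and -2.63 for Gh_D11G0832 (edgeR adjusted p = 0.00409 to 0.0191), where 40.0% of all genes were called and 19.3% were called lower. SAS libraries lay below all AS libraries in the A copies, as for 28.4% of all genes, and overlapped with AS leaf 2 in the D copies. The call of Gh_D07G0360 was lost without AS leaf 1, AS leaf 3 or SAS leaf 2. The SPX4-described pair and the A06 and D06 genes had 0 calls in AS leaves and in SAS against AS leaves.

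Whether the response differed between organs was tested as an interaction over all 18 libraries. For SAS, the root response exceeded the leaf response by 4.02 ± 0.79 on the log2 scale for Gh_A07G0303, 5.12 ± 1.03 for Gh_D07G0360, 5.02 ± 1.24 for Gh_A11G0714 and 5.53 ± 1.14 for Gh_D11G0832 (edgeR adjusted p = 0.000916 to 0.00471). These were 4 of 9 tested genes, where 40.9% of all 48954 genes were called and 20.9% were called in that direction. For AS, the same differences were 1.48 ± 0.76, 1.78 ± 0.98, 0.40 ± 1.17 and 1.53 ± 1.07, with 95% intervals that together ran from -2.15 to 3.91, and none was called. Only Gh_A07G1885 was called for AS, at 0.73 ± 0.18 (edgeR adjusted p = 0.0067), where 27.0% of all genes were called, and with library totals alone its difference was 0.09, which is 0.76 relative to the median of all genes. With the 3 libraries left out, the AS difference was called for Gh_A07G0303, Gh_D07G0360, Gh_D11G0832 and Gh_A07G1885, at 0.86 to 2.04. That of Gh_A11G0714 was 1.08 (edgeR adjusted p = 0.11). The libraries were chosen on the rising SPX2- and SPX3-described genes, so the calls of these genes are no independent support.

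Between CK roots and CK leaves 1 of 9 genes was called, Gh_A11G0714, with a log2 difference of 2.31 ± 0.88 in favour of roots (edgeR adjusted p = 0.0303), where 66.2% of all genes were called. Without CK root 3, or without any CK leaf library, the count was 0, and with the 3 libraries left out the difference was 1.12 and called. Gh_D11G0832 was called too without CK root 1, SAS root 1 or AS leaf 2. Among the 13 genes, the highest mean FPKM belonged to Gh_D06G1043 in CK roots (21.2), CK leaves (24.15) and SAS leaves (25.6). It belonged to Gh_A07G0303 in AS roots (129.6), SAS roots (191) and AS leaves (47.4). FPKM is per length, so these levels can be set beside each other.

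Over the 6 groups, the mean CPM of the 4 rising genes ran in the same order from SAS roots through AS roots and AS leaves to CK roots, followed by CK and SAS leaves. Libraries of SAS roots and AS roots overlapped, as did those of AS leaves and CK roots, and those of CK leaves and SAS leaves. The order of these neighbours thus rests on their means, and overlap of 3 libraries does not show that groups are alike. Only AS roots against AS leaves was a step between neighbours without overlap in all 4 genes. The 4 untested genes had SAS roots and AS roots on top, which overlapped, and all other groups overlapped with their neighbours below. In Gh_A07G1885, Gh_A06G2043, Gh_D06G1043 and Gh_D06G1042 all 5 pairs of neighbouring groups overlapped. Gh_D07G2100 had 1 gap, between the leaf and CK root groups above and the treated root groups below.

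A further pair, Gh_A05G0092 (A05, 1149630 to 1152029, plus strand) and Gh_D05G0153 (D05, 1540812 to 1543257, plus strand), are described as SPX domain gene 1 with a doubled space, so the rule did not take them. Gh_A05G0092 stood at 17.4, 17.0 and 47.3 CPM in CK roots, 264, 263 and 270.3 CPM in AS roots and 76.1, 336 and 371 CPM in SAS roots. In leaves it stood at 14.7, 16.5 and 17.3 CPM in CK, 60.6, 19.4 and 53.3 CPM in AS and 15.5, 12.2 and 7.01 CPM in SAS. The libraries that stood apart in the other SPX genes stood apart here too, in the same direction. Gh_A05G0092 rose by 3.23 ± 0.59 on the log2 scale in AS roots, 3.19 ± 0.59 in SAS roots and 1.51 ± 0.39 in AS leaves (edgeR adjusted p = 0.00254, 0.00132 and 0.0234). Gh_D05G0153 rose by 3.50 ± 0.53, 3.74 ± 0.54 and 2.05 ± 0.51 (edgeR adjusted p = 0.000971, 0.000295 and 0.0204). Both AS leaf calls were lost without any 1 CK leaf library, AS leaf 1 or AS leaf 3, and neither gene was called in SAS leaves.

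The share of the D copy in an A and D pair does not depend on the scaling between libraries, since both counts come from one library. In the SPX4-described pair the D copy held 41.4, 38.0 and 28.6% of the pair's counts in the CK root libraries, against 21.0, 20.1 and 18.01% under AS and 17.4, 28.3 and 16.9% under SAS. The treated root libraries all lay below the CK root libraries, whereas in leaves the means were 40.1% ± 4.11 in CK, 46.0% ± 2.61 in AS and 39.2% ± 2.15 in SAS (SD, n = 3). In the SPX2-described A07 and D07 pair the D share ran the other way, with 27.6, 26.1 and 29.0% in the CK root libraries, against 34.4, 34.2 and 38.3% under AS and 36.7, 42.9 and 43.2% under SAS. Its leaf means were 20.3 to 23.9%. These 4 root differences from CK, -16.3 and -15.1 percentage points for the first pair and 8.05 and 13.3 for the second, each had a two-sided exact permutation p of 0.1. This is the smallest that 3 against 3 libraries can give, and it was 0.282 after adjustment over the 31 share comparisons, so none passed. Of the 31 comparisons, 11 had this smallest p, and the largest difference among them was -18.8 points in the A11 and D11 pair between AS and CK leaves. The SPX1-described pair had 3 of the 11, between 5.35 and 8.78 points, and the A06 and D06 pair 1, at -4.39 points in SAS roots. The A10 and D10 genes shared their counts nearly evenly, at 50.7% ± 1.79 from D10 in AS roots and 48.6% ± 3.95 in SAS roots. In the other groups this pair had too few counts to compare.

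**Figure D3:**
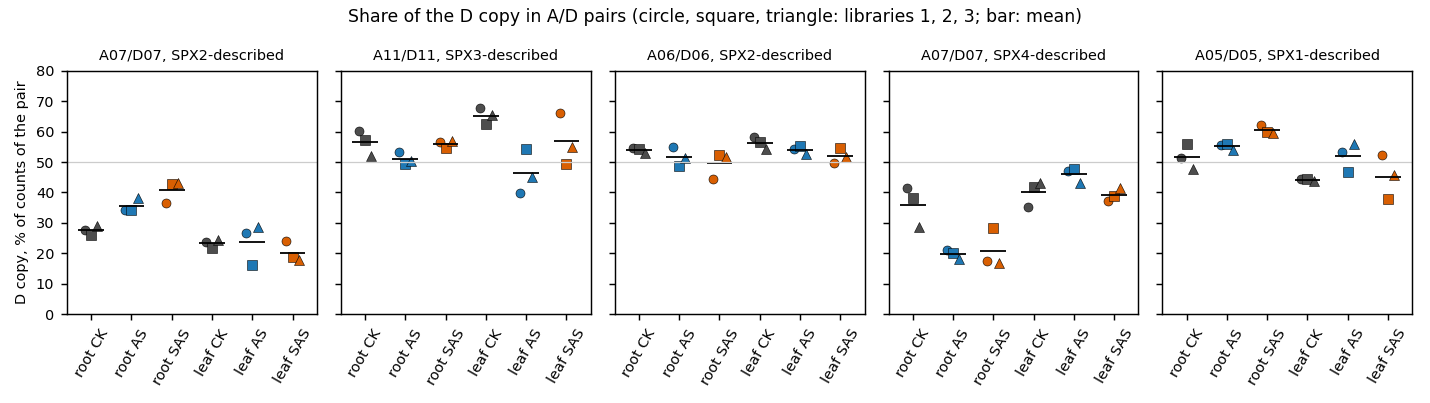
Share of the D copy in the summed counts of an A and D pair, in percent on the vertical axis, by group on the horizontal axis. Circles, squares and triangles are libraries 1, 2 and 3, bars are means of 3 libraries, and the grey line marks 50%. In the SPX4-described pair the 6 treated root libraries lie between 16.9 and 28.3%, below the CK roots, and in the SPX2-described A07 and D07 pair all treated root libraries lie above them.

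The other genes of the phosphate system were taken from 8 lists by description, 245 genes in all, of which 149 were tested in root and 158 in leaf. In AS roots 72 of 149 were called higher and 12 lower, with a median log2 change of 0.58 against -0.01 for all genes, of which 21.0% were called higher. In SAS roots 67 were called higher and 37 lower, with a median of 0.43 against -0.06, where 28.6% of all genes were called higher. With library totals alone the counts were 51 higher and 40 lower for AS roots and 57 and 51 for SAS roots. Some of these genes entered the test only through treated libraries, as with the 4 SPX genes above. Among the 131 with a mean FPKM of at least 1 in CK roots, 59 were called higher and 12 lower in AS, and 52 and 37 in SAS, where 19.0 and 25.1% of all such genes were called higher. In AS leaves 32 of 158 were called higher and 13 lower, where 11.5% of all genes were called higher and 4124 of 44761 genes lower. With library totals alone the counts were 41 and 5, and over all genes 6480 and 2671. Among the 140 with a mean FPKM of at least 1 in CK leaves, 23 were called higher and 13 lower in AS. Of all such genes, 10.5% were called higher and 9.81% lower. In SAS leaves 45, which is 28.5%, were called higher and 37, which is 23.4%, lower, with a median of -0.03. Over all genes 27.2% were called higher and 11636 of 44761 genes lower. Among the same 140 the SAS counts were 32 higher and 37 lower, with a median of -0.11. That is 22.9% higher and 26.4% lower, against 25.1 and 27.6% of all such genes. For the lists below, each count is to be set beside all genes in the same setting. With the scaling used here these were 21.0% higher and 17.0% lower for AS roots and 28.6 and 28.3% for SAS roots. Among genes with a mean FPKM of at least 1 in CK roots they were 19.0 and 18.1% for AS and 25.1 and 30.3% for SAS. With library totals alone, 4920 of 39584 genes were called higher and 14966 lower for AS roots, and 7447 and 18401 for SAS roots. Named genes with a mean FPKM under 1 in the CK libraries of their organ passed the filter through treated libraries, and their values are given with no test.

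Lipid remodelling enzymes, which replace membrane phospholipids by galactolipids and sulfolipids and so free phosphate, were the list with the highest median in AS roots, at 2.03, with 24 of 34 called higher and 2 lower. In SAS roots 24 were called higher and 5 lower, with a median of 1.80 (1.27 with library totals alone). Among the 28 with a mean FPKM of at least 1 in CK roots, 18 were called higher and 2 lower in AS and 18 and 5 in SAS, with medians of 1.46 and 1.44. Gh_A06G0941, described as the galactolipid synthase MGD1, stood at 0.531, 2.17 and 1.28 CPM in CK roots and 51.6, 62.0 and 52.3 CPM in SAS roots, with a mean FPKM of 0.756 in CK. In this gene SAS root 1 lay with the other SAS libraries. In leaves, 12 of 32 of these enzymes were called higher and 4 lower in AS, and 7 higher and 12 lower in SAS. Over all 44761 genes, 5144 (11.5%) were called higher and 4124 lower in AS, and 12168 (27.2%) and 11636 in SAS. Among the 29 expressed at that level in CK leaves, 9 were called higher and 4 lower in AS, and 4 and 12 in SAS. Of all genes expressed at that level, 10.5% were called higher and 9.81% lower in AS, and 25.1 and 27.6% in SAS. The AS leaf total of 16 calls was 5 to 7 without CK leaf 1, CK leaf 2, AS leaf 1 or AS leaf 3. Calls over all genes in AS leaves were then 4488 to 5627, in place of 9268. Gh_D05G0124, described as MGD2, stood at 0.788, 0.886 and 1.45 CPM in CK leaves, 15.3, 1.83 and 17.2 CPM in AS leaves and 11.4, 5.33 and 3.77 CPM in SAS leaves.

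Exporters and transporters moved in both directions. Of 20 tested genes described as EXS family or phosphate 1, the group that in Arabidopsis includes the phosphate exporter PHO1, 10 rose and 1 fell in AS roots, and 2 rose and 3 fell in SAS roots. The counts with library totals alone were 4 higher and 2 lower in AS and 2 and 8 in SAS. The AS total of 11 calls was 4 to 7 without CK root 1, CK root 2, AS root 1 or AS root 2. Those fits gave 10637 to 11834 calls over all genes in AS roots, in place of 15044. Of the 18 with a mean FPKM of at least 1 in CK roots, 8 were called higher and 1 lower in AS roots, and 0 higher and 3 lower in SAS roots. Gh_D12G2772, outside those 18, was at 0.551, 1.08 and 0.820 CPM in CK roots and 139.7, 304 and 199 CPM in SAS roots. In leaves Gh_A05G3181 of the same list had 5 counts over the 3 CK libraries and 4.46, 6.05 and 2.07 CPM in SAS. Of 20 tested phosphate transporters, 10 rose and 5 fell in AS roots and 10 rose and 4 fell in SAS roots, and with library totals alone 5 were higher and 6 lower in AS. Of the 18 transporters expressed at that level in CK roots, 9 were called higher in each treatment, with 5 lower in AS and 4 in SAS. The AS total of 15 calls was 9 without CK root 1 and 9 without AS root 3, fits with 10760 and 14335 calls over all genes. Gh_D07G0478, described as phosphate transporter 3;2 of the mitochondrial carrier type, stood at 0.688, 1.07 and 0.629 CPM in CK roots and 205, 288 and 270.04 CPM in SAS roots. Gh_A07G0413, with the same description, rose by 4.68 ± 0.34 in SAS leaves (edgeR adjusted p = 1.79e-05). In SPX-MFS transporters, a type that moves phosphate into or out of the vacuole in Arabidopsis and rice, Gh_D03G1488 rose by 1.06 ± 0.18 in SAS roots and Gh_A03G2019 by 1.05 ± 0.11 in SAS leaves (edgeR adjusted p = 0.000698 and 8.04e-05).

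Purple acid phosphatases, which release phosphate from organic compounds, had 15 of 41 called higher and 3 lower in AS roots and 16 higher and 15 lower in SAS roots, with a median of 0.02 in SAS. Among the 33 with a mean FPKM of at least 1 in CK roots, 11 were called higher and 3 lower in AS, and 10 higher and 15 lower in SAS, with a median of -0.40. Library totals alone gave 13 higher and 14 lower in AS. Gh_D10G1436, described as purple acid phosphatase 23, had 0 counts in CK roots and stood at 1.63, 0.809 and 1.73 CPM in AS roots and 4.73, 23.9 and 17.0 CPM in SAS roots. Gh_D13G0308, described as purple acid phosphatase 10, stood at 0.201, 0 and 0.245 CPM in CK leaves, 11.9, 2.16 and 14.1 CPM in AS leaves and 2.77, 3.84 and 1.16 CPM in SAS leaves. In both genes the library that stood apart in the SPX genes, SAS root 1 and AS leaf 2, was again the lowest of its group. Inositol polyphosphate kinases, which in Arabidopsis make the precursors of the inositol pyrophosphates that SPX domains bind, rose in 10 of 16 cases and fell in 1 in AS roots, and rose in 9 and fell in 6 in SAS roots. With library totals alone 4 were higher and 4 lower in AS. The AS total of 11 calls was 4 to 7 without CK root 1, CK root 2 or AS root 1. In those fits 10760 to 11834 of all genes were called in AS roots, in place of 15044. Gh_D02G2422, an inositol 1,3,4-trisphosphate 5/6-kinase by description, rose by 3.97 ± 0.56 in SAS roots (edgeR adjusted p = 0.000249).

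Of 11 genes described as phosphate starvation response 1, phosphate 2, phosphate deficiency response or transporter traffic facilitator, regulators of the system, 2 rose and 0 fell in AS roots, and 4 rose and 3 fell in SAS roots. Scaled by library totals alone, 2 were higher and 5 lower in each. The SAS total of 7 calls was 3 to 4 without CK root 1, CK root 2 or SAS root 3. These fits called 19103 to 19467 of all genes in SAS roots, in place of 22551. Gh_A01G2081, described as phosphate transporter traffic facilitator1, rose by 1.55 ± 0.29 in SAS roots (edgeR adjusted p = 0.00147). In Arabidopsis the protein of that name helps phosphate transporters leave the endoplasmic reticulum. Gh_D10G0234, described as phosphate 2, in Arabidopsis a ubiquitin-conjugating enzyme that lowers phosphate transporter levels, rose by 0.97 ± 0.22 in SAS leaves (edgeR adjusted p = 0.00411). In roots Gh_D10G0234 lay lower in SAS, at 168, 110 and 140 CPM in CK, 96.3, 83.7 and 118 CPM in AS and 58.4, 106 and 96.9 CPM in SAS. Of 5 tested genes described only as SPX domain-containing proteins, with or without a zinc finger, 1 rose in AS roots. In SAS roots 1 fell, Gh_D12G1317, by 0.92 ± 0.32 (edgeR adjusted p = 0.0301), a call lost with the 3 libraries left out and without CK root 1, SAS root 1 or SAS root 2. In SAS leaves Gh_D12G1317 fell by 1.06 ± 0.22 (edgeR adjusted p = 0.00237).

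**Figure D4:**
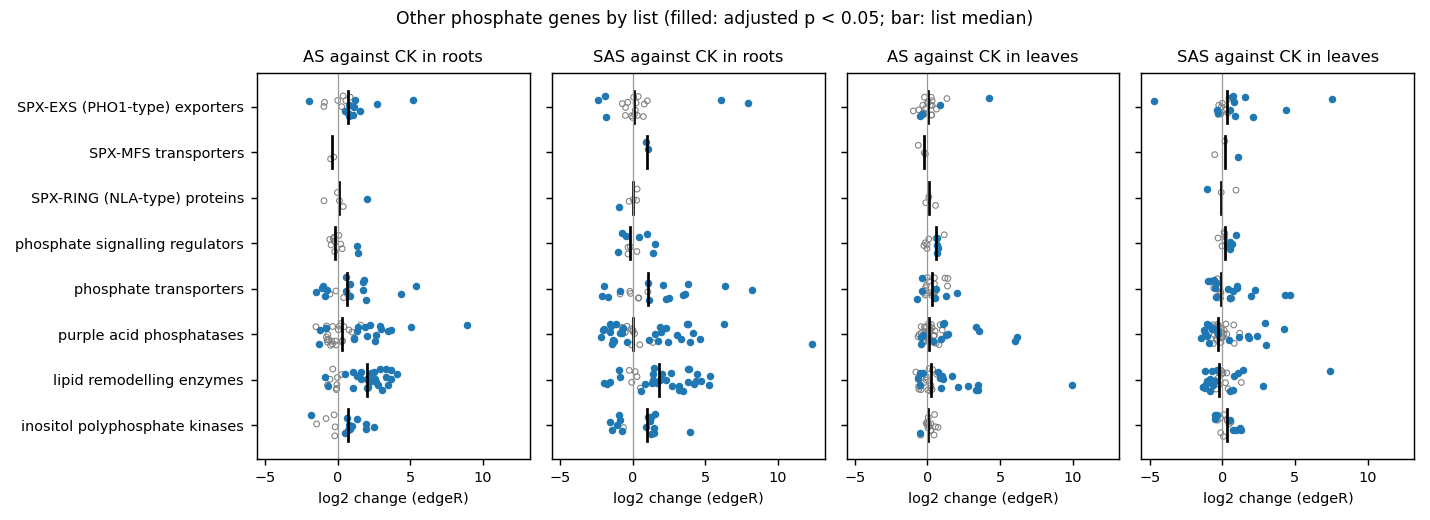
Log2 change of each tested gene of the 8 phosphate lists against CK, on the horizontal axis, for AS and SAS in roots and leaves. Points are genes, spread vertically within a list for visibility, filled at an adjusted p under 0.05, and black bars are list medians. Lipid remodelling enzymes have medians of 2.03 in AS roots and 1.80 in SAS roots (1.46 and 1.44 among those expressed in CK roots), and medians in leaves lie between -0.28 and 0.58. The point at the far right in SAS roots is Gh_D10G1436, with 0 counts in CK, whose fitted value depends on the prior count.

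The pattern of Gh_D10G0726 over the 18 libraries was compared with those of 48941 other genes by Pearson correlation of log2(CPM + 1), as a description. The libraries share tissue and treatment, which gives many genes a high value. Outside the SPX genes, the closest were Gh_D01G2023, described as C-repeat/DRE binding factor 1, a type of transcription factor known in Arabidopsis from the cold response, at 0.994, and Gh_A05G1870 and Gh_D08G2292, with no description, each at 0.993. Next came Gh_D03G1556 of the lactate and malate dehydrogenase family at 0.991 and Gh_D02G0758, a protein kinase, at 0.989. Gh_D01G2023 had a mean of 0.0241 CPM ± 0.0417 in CK roots, 9.01 ± 1.90 in AS roots and 26.0 ± 14.5 in SAS roots (SD, n = 3), and at most 0.0654 in any leaf group. Gh_A05G1870 had a mean of 0.0301 CPM ± 0.0522, 11.5 ± 2.35 and 66.2 ± 38.7 in the same root groups (SD, n = 3). Among the SPX genes, Gh_D10G0726 correlated at 0.999 with Gh_A10G0665, at 0.991 with Gh_D05G1204 and at 0.989 with Gh_A12G0857, and at 0.901 to 0.934 with the 4 tested genes that rose.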

How the data were processed

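Whole-number counts per gene were deposited by the authors without normalization, beside the authors' own FPKM values, per the file headers. Each count of 0 is listed at an FPKM of 0.0001. The submitters' processing notes name HISAT and StringTie, without versions, and strandedness is not stated. Among counts from 1 to 20, 56.1 to 59.8% per library were even, so part of the counts may not be single reads. Of 70478 gene identifiers, 0 matched the RefSeq table of 99454 genes (Gossypium_hirsutum_v2.1), so no sequence is shown.

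Counts were tested with edgeR 4.0.16 (quasi-likelihood, TMM scaling) within each tissue (9 libraries) and, for organ differences, over all 18, for genes with FPKM of at least 1 in at least 3 fitted libraries. Benjamini-Hochberg adjusted p under 0.05 over all genes was called, and the standard error is the log2 change divided by the square root of F. edgeR's biological coefficient of variation (BCV) came to 0.290 (root) and 0.197 (leaf). CPM is the count per 1000000 of library total times TMM factor. DESeq2 1.42.0 and limma 3.58.1, on log2(FPKM + 1) or log2(FPKM + 0.1), were alternatives, as were other scalings, filters and left-out libraries. The fits were tested on simulated data. Total counts per library were 46345805 to 66843791, and floors of 3 counts cover counting error only.

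Members, lists and tests were chosen with earlier results of these data known. SPX-MFS genes were kept out of the SPX domain-containing list and RHD3 genes out of the root markers. Of each list, the gene with the largest SAS change among those called and not overlapping with CK was named, 1 per tissue, and the 5 genes closest to Gh_D10G0726. Same-numbered libraries of an organ did not deviate together, so no block was used. Root and leaf libraries of the same number were not compared in this way.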

Additional observations from a re-analysis of the deposited data

Results flagged for a closer look

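The difference between the root and the leaf response to SAS passed the threshold in 4 tested SPX domain genes and in both SPX1-described genes. On the log2 scale it was 4.02 for Gh_A07G0303, 5.02 for Gh_A11G0714, 5.12 for Gh_D07G0360 and 5.53 for Gh_D11G0832. It was 3.74 for Gh_A05G0092 and 4.15 for Gh_D05G0153 (edgeR adjusted p = 0.000902 to 0.00471 over the 6 genes). The root marker share was 0.0275% of counts in CK roots and 0.00453% in SAS roots beside these values, and its part was not tested. In SAS roots 1 of 7 tested root markers was called higher and 3 lower, where 28.6% of all genes were called higher and 28.3% lower. With the 3 libraries that stood apart left out, the 6 differences were 4.84 to 6.96. In each of these genes CK root 3 was the highest control root library and SAS root 1 the lowest SAS root library. Leaving them out therefore raises the differences by itself.

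The AS response of the SPX4-described Gh_A07G1885 differed between root and leaf by 0.73 on the log2 scale (edgeR adjusted p = 0.0067), in the fit of all 18 libraries. The fits within each organ gave 0.42 ± 0.15 in roots and -0.22 ± 0.10 in leaves. With library totals as the only scaling the difference was 0.09 and not called, where the median of all genes was -0.67, and relative to that median it was 0.76.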

How the results depend on the processing

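The calls and log2 changes were refitted under 9 other settings and with each library left out. The D shares and the means of the 4 untested genes were recomputed with libraries left out only, the group orders with FPKM in place of CPM only, and the correlations were not recomputed. Counts of called SPX genes moved as follows. By limma with either pseudocount, 8 genes were called in AS and in SAS roots, 3 in the root minus leaf AS response, 8 in the root minus leaf SAS response and 0 between CK roots and CK leaves. limma on FPKM also moved all genes, with 20921 and 26976 of 39584 called in AS and SAS roots at a pseudocount of 1, of which 16167 and 19347 were lower. At that pseudocount 21044 and 29130 of 48954 genes were called in the root minus leaf AS and SAS responses. Of these, 16975 and 20477 were lower. Between CK roots and CK leaves 33687 of 48954 genes were called at that pseudocount. With library totals alone, 3 and 7 SPX genes were called in the root minus leaf AS and SAS responses, where 19946 and 25622 of 48954 genes were called. By DESeq2, 2 were called in the root minus leaf AS response and 2 between CK roots and CK leaves, where 16425 and 33590 of 48954 genes were called. With the 3 libraries left out, 4 were called in SAS against AS roots and 4 in the root minus leaf AS response. In that setting 12920 of 37119 and 13328 of 48114 genes were called over all genes. The 3 libraries were picked on the responsive SPX genes themselves. With the replicate block, 0 were called in SAS leaves and 0 between CK roots and leaves, and Gh_D07G0360 lost its AS leaf call. With that block 22306 of all 44761 genes were called in SAS leaves and 7141 in AS leaves, and 31760 of 48954 between CK roots and leaves. Within an organ the numbers do not pair the libraries, and pairing between root and leaf libraries was not examined. In their deviations within their groups, same-numbered libraries of an organ correlated at -0.165 to 0.162, and differently numbered ones at -0.26 to 0.28. For 3 of 18 libraries the single best correlate within the organ had the same number, and for 0 of 18 was this so against both other groups. The replicate block also ended the SAS leaf call of Gh_A06G2043 and the CK organ call of Gh_A11G0714, and changed no other member's call. Leaving out 1 library at a time gave 4 to 5 calls in AS roots, 4 to 5 in SAS roots, 0 to 2 in SAS against AS roots, 2 to 4 in AS leaves, 0 to 1 in SAS leaves and 3 to 4 in SAS against AS leaves. It gave 1 to 2 and 4 to 5 in the root minus leaf AS and SAS responses and 0 to 2 between CK roots and leaves. For the other phosphate genes it gave 57 to 91 calls in AS roots, 91 to 105 in SAS roots, 40 to 60 in SAS against AS roots, 19 to 57 in AS leaves, 65 to 85 in SAS leaves and 48 to 64 in SAS against AS leaves. Calls over all genes moved too, from 10637 to 15852 in AS roots, 19103 to 23067 in SAS roots and 11339 to 15575 in SAS against AS roots. In leaves they ran from 4488 to 11707 in AS, 19989 to 24038 in SAS and 13345 to 18868 in SAS against AS. They ran from 10373 to 14497 in the root minus leaf AS response and 17487 to 20871 in that to SAS. Between CK roots and leaves they ran from 29553 to 33082.

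In 66 cases over 23 values a log2 value changed sign, and in 4 of these it was called in either fit. Those 4 were of Gh_D06G1042 by limma at pseudocounts of 1 and 0.1, at -0.40 and -0.45 in SAS roots and -0.38 and -0.42 in the root minus leaf SAS response. Of the 66, 38 arose with library totals alone or by limma, which move all genes, and relative to the median of all genes 34 of these kept their sign. The values that follow are in that order, library totals and then the 2 limma fits. For Gh_A07G1885 they were -0.054, -0.058 and -0.061 in AS roots, -0.35, -0.34 and -0.36 in SAS roots, -0.32, -0.30 and -0.32 in the root minus leaf SAS response and -0.14, -0.14 and -0.15 between CK roots and leaves. For Gh_D06G1042 they were -0.40, -0.35 and -0.40 in the root minus leaf AS response and -0.22, -0.20 and -0.22 between CK organs, and with library totals -0.43 in SAS roots and -0.41 in the root minus leaf SAS response. For Gh_D06G1043 they were 0.018, 0.012 and 0.013 in AS leaves and -0.18, -0.18 and -0.19 between CK organs, and for Gh_A06G2043 -0.044, -0.047 and -0.049 between CK organs. The root minus leaf AS response of Gh_A11G0714 was -0.18 with library totals. By limma alone, Gh_D07G0360 was -0.020 and -0.057 in SAS leaves and Gh_D05G0153 -0.091 and -0.092 in SAS against AS roots, the 4 that changed sign relative to the median too. Without CK root 3, SAS root 1 and AS leaf 2, SAS against AS roots was 0.018 for Gh_D06G1043 and 0.40 for Gh_A05G0092, and CK roots against leaves was -0.0040 for Gh_A07G1885 and -0.033 for Gh_D06G1042. That last value was -0.017 with RLE size factors, -0.000772 without the FPKM filter and -0.017 by DESeq2.

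Leaving out 1 library at a time, SAS against AS roots ran from -0.23 to 0.039 for Gh_A06G2043, -0.38 to 0.021 for Gh_D06G1043, -0.42 to 0.023 for Gh_D07G2100, -0.37 to 0.41 for Gh_A05G0092 and -0.068 to 0.67 for Gh_D05G0153. SAS against CK leaves ran from -0.044 to 0.58 for Gh_A07G0303, -0.12 to 0.034 for Gh_A07G1885, -0.13 to 0.036 for Gh_D06G1042, -0.48 to 0.46 for Gh_D07G0360, -0.63 to 0.23 for Gh_D11G0832 and -0.83 to 0.057 for Gh_D05G0153. AS against CK leaves ran from -0.13 to 0.0034 for Gh_D06G1043. The root minus leaf AS response ran from -0.12 to 1.59 for Gh_A11G0714, and CK roots against leaves from -0.0051 to 0.17 for Gh_A07G1885, -0.070 to 0.090 for Gh_D06G1042 and -0.017 to 0.11 for Gh_D06G1043.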
